A study of Mus musculus with 1483 samples.

Results

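Neuropeptide Y (Npy) and the genes of 3 of its receptors, Npy1r, Npy2r and Npy5r, were described in single neurons of mouse primary visual cortex. These 4 genes were taken by name from a table of 45768 genes, and each of them was read in all 1483 cells. Npy is released by a subset of cortical inhibitory neurons. It is cut from a precursor, packed into dense-core vesicles and acts through receptors that couple to Gi/o proteins, which lower excitability and transmitter release. Y1 (Npy1r) and Y5 (Npy5r) receptors are mostly found on the receiving cell, and Y2 (Npy2r) is known for acting on the terminals that release the peptide as well as on other neurons.

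The cells came from 33 C57Bl/6J mice carrying an enhancer-driven SYFP2 transgene delivered by adeno-associated virus (AAV), a viral vector. Cells were flow sorted on the fluorescent protein, so each sort holds the cells in which that enhancer drove enough reporter. There were 11 enhancers: eHGT_017h, eHGT_019h, eHGT_023h, eHGT_058h, eHGT_078h, eHGT_079h, eHGT_128h, eHGT_140h and hDLXI56i with 3 mice each, eHGT_064h with 4 mice and eHGT_082h with 2 mice. Neither age nor sex of these animals is given in the sources used here. Between 32 and 53 cells were read per mouse, with 17123364 to 35856031 reads in all. Levels are read counts per 1000000 reads of the cell (CPM), and values are compared within a gene only, since CPM is not scaled by transcript length.

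Cell classes were set by marker levels. A cell was excitatory with Slc17a7, the vesicular glutamate transporter of cortical pyramidal cells, at 10 CPM or more and both GABA-synthesis genes Gad1 and Gad2 below it. A GABAergic cell had the reverse pattern and joined the Lamp5, Sst, Pvalb or Vip class when that gene alone of the 4 reached 100 CPM. This gave 154 Lamp5, 214 Sst, 575 Pvalb, 50 Vip and 278 excitatory cells. Of the marker genes that the rule did not read, the lineage factor Lhx6 was at 10 CPM or more in 98.1% of Sst and 99.5% of Pvalb cells and in 0% of Vip cells, and Adarb2 was in 99.4% of Lamp5 and 100% of Vip cells. The excitatory lineage factor Neurod2 was in 96.8% of excitatory cells and in at most 0.348% of the cells of any other class. Others on the marker lists did not separate the classes this way: Cxcl14, listed for Lamp5, was in 22.1% of Lamp5 and 88.0% of Vip cells, Reln, also listed for Lamp5, was in 58.4% of Lamp5 and 83.6% of Sst cells, and Slc30a3, listed for excitatory cells, averaged 107 CPM in them and 201 CPM in Sst cells. The unit of comparison was a mouse's cells of 1 class, with at least 5 cells, which left 7 mice for Lamp5, 12 for Sst, 21 for Pvalb, 4 for Vip and 9 for excitatory cells. Cells had a median of 586338 reads and ranged between 833 and 1018507, so that 1 read was worth 1.71 CPM in the median cell, and class medians lay between 554466 and 597741 reads.

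Npy1r and Npy5r lie head to head on chromosome 8 (RefSeq annotation of GRCm38.p6, the mm10 assembly), with Npy1r at chr8:66697149-66706800 on the plus strand and Npy5r at chr8:66679965-66688094 on the minus strand. The start sites used for their promoters are 9328 bases apart. Npy lies at chr6:49822710-49829507 on the plus strand and Npy2r at chr3:82538383-82548989 on the minus strand. The promoters of the ligand and of the receptor pair whose levels went together across classes are printed here from 250 bases before to 50 bases after the start, each on its own gene's strand and read 5′ to 3′ (Npy chr6:49822460-49822759, Npy1r chr8:66697172-66697471, Npy5r chr8:66688045-66688344). Capitals mark a GC box (GGGCGG) in Npy and an E-box (CACGTG) in Npy5r.
Npy: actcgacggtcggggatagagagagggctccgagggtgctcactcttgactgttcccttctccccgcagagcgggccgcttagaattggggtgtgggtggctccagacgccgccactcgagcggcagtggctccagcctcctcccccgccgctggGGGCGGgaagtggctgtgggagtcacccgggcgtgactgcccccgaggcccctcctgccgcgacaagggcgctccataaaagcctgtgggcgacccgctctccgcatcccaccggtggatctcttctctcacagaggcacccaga
Npy1r: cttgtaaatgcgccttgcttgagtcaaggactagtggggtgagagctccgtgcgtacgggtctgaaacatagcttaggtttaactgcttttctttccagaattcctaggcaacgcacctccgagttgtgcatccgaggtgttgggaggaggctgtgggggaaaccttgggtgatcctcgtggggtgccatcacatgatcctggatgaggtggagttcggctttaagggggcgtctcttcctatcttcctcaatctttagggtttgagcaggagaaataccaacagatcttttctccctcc
Npy5r: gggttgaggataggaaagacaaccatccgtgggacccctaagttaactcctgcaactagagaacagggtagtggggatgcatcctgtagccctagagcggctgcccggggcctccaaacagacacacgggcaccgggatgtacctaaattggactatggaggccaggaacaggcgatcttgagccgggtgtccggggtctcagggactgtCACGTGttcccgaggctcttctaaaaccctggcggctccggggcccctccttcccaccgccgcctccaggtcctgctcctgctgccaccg

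The Npy promoter was the most GC-rich of the 4, with 68.0% G or C and 24 CG pairs, against a median of 52.7% and 7 CG pairs over the 32851 promoters of the RefSeq table. Npy1r had 51.7% and 10 CG pairs, Npy2r 57.7% and 14, and Npy5r 61.7% and 15. Each promoter was searched on both strands for the TATA box (TATAAA), the E-box (CACGTG), part of the cAMP response element (TGACG) and the GC box (GGGCGG). The GC box in Npy began 95 bases before the start site, another in the Npy2r promoter began 62 bases before it, and the E-box in Npy5r began 40 bases before it. GGGCGG was in 35.7%, CACGTG in 7.15%, TGACG in 20.8% and TATAAA in 13.6% of all promoters, and no match overlapped another.

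Npy was read in interneurons and hardly at all in excitatory cells, and its level differed between the interneuron classes. Lamp5 cells, which include the neurogliaform cells of the cortex, had the highest level, with a mean of 25168 ± 12636 CPM (SD, n = 7 mice) and a lowest, median and highest mouse of 8999, 24312 and 44269 CPM. Sst cells averaged 5082 ± 2959 CPM (n = 12) with mice at 2546, 3963 and 12725.5 CPM as lowest, median and highest. Pvalb cells averaged 488 ± 255 CPM (n = 21), with mice between 124 and 976 CPM and a median of 498 CPM. In the 4 Vip mice Npy was at 0, 592, 1741 and 7549 CPM. In excitatory cells it was listed at 0 in all 9 mice, and 1 of 278 cells had a value above 0, at 2.74 CPM, in a mouse with too few excitatory cells to count as a unit. The Lamp5 and Sst mice overlapped only at the low end of the Lamp5 range, and no Sst mouse overlapped a Pvalb mouse.

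**Figure D1:**
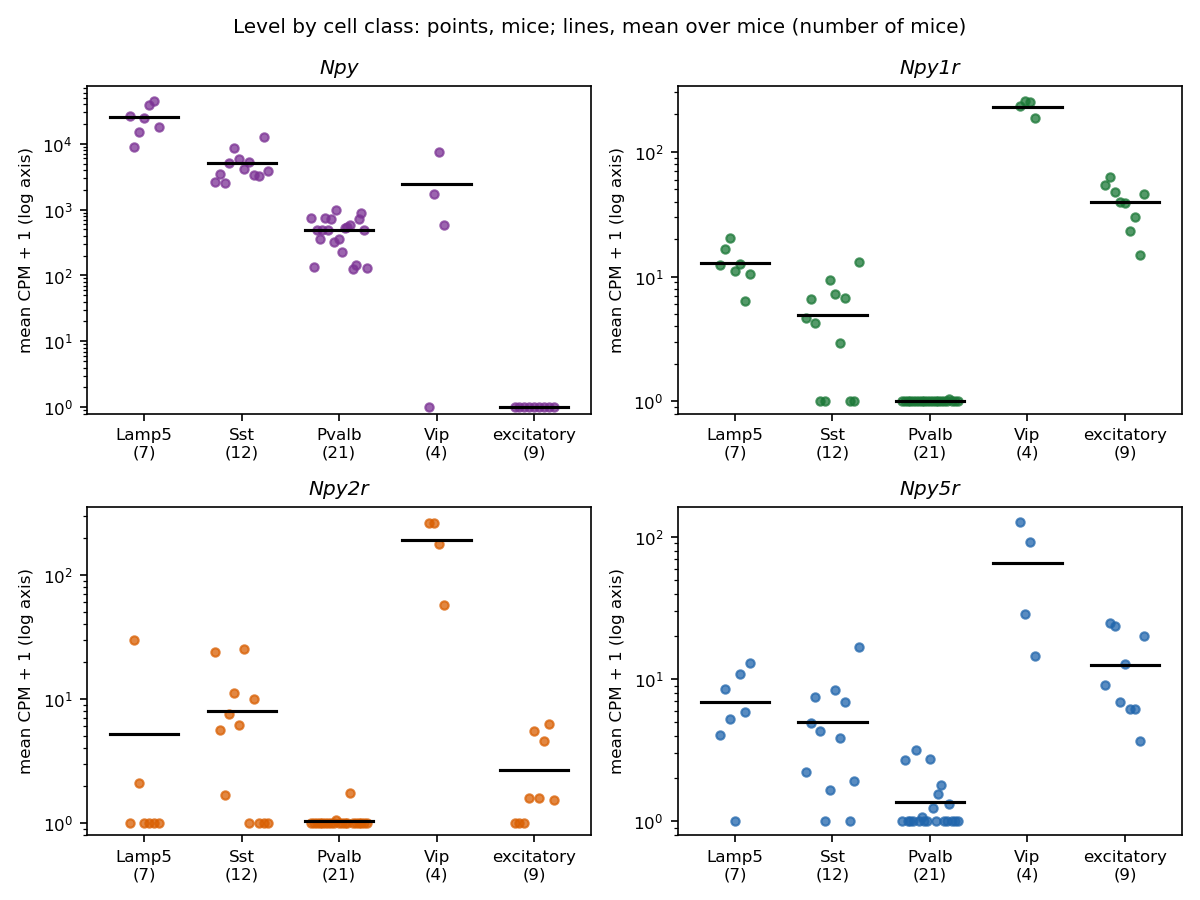
Mean level of Npy, Npy1r, Npy2r and Npy5r in each mouse (points) by cell class, as CPM + 1 on a log axis; black lines are means over mice and the number of mice stands below each class. Npy is highest in Lamp5 cells and at 0 in all 9 excitatory mice, and the 3 receptors have their highest means in Vip cells.

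Each class was compared with the other 4, averaged with equal weight, in limma, fitted across 20927 genes on log2(mean CPM + 1) with the mouse as a random block. A gene was called with a Benjamini-Hochberg adjusted p under 0.05 and a log2 difference of at least 1. Folds on this scale understate the change of low genes. Npy was called higher in Lamp5 cells by 7.08 ± 0.66 (SE, adjusted p = 1.2e-12) and in Sst cells by 4.35 ± 0.54 (adjusted p = 5.3e-09), and lower in excitatory cells (adjusted p = 4.5e-21). No fold is given against excitatory cells, which are listed at 0, and the Lamp5 and Sst differences contain those zeros in the mean of the other classes. The differences in Pvalb (-0.04 ± 0.46) and Vip cells (-0.50 ± 0.83) were not called, and without eHGT_017h replicate 1 Npy was called higher in Vip cells (2.21, adjusted p = 0.00049). Npy was also called higher in Vip cells with a transmitter threshold of 100 CPM (1.96) or at least 10 cells per unit (2.10), and lower in Pvalb cells with a pseudocount of 10 (-1.05, adjusted p = 0.011) or the mean of log2 values over cells (-2.84, adjusted p = 3.4e-06). Of all genes tested, 5.55% were called higher in Lamp5 cells, 3.39% higher in Sst cells and 4.66% lower in excitatory cells.

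Pairs of classes gave the order more directly. Npy was higher in Lamp5 than in Sst cells by 2.19 ± 0.75 on the log2 scale (adjusted p = 0.026), and it was higher in both of the mice that held units of each class, with 44269 CPM in Lamp5 and 12725.5 CPM in Sst cells of hDLXI56i replicate 2 and 18138.5 CPM in Lamp5 and 3812 CPM in Sst cells of replicate 3. In this pair 12.5% of all genes were called. The Lamp5 to Sst call was lost with the mouse as a fixed term (1.11 ± 1.13, adjusted p = 0.64), with a pseudocount of 0.1 (2.17, adjusted p = 0.085), with library letter G only (2.29, adjusted p = 0.088) and without either of hDLXI56i replicates 1 and 2 (2.06 and 2.15, adjusted p = 0.055 and 0.051). Sst cells were higher than Pvalb cells by 3.51 ± 0.57 (adjusted p = 1.9e-06; 8.47% of genes called), in 8 of 8 mice with both. Sst cells were also higher than Vip cells by 3.88 ± 0.91 (adjusted p = 0.00091; 14.1% of genes called), but without eHGT_017h replicate 1, whose 8 Vip cells were all at 0, the difference was 1.19 and not called (adjusted p = 0.096). Pvalb minus Vip was within the spread (0.37, 95% interval -1.37 to 2.11, adjusted p = 0.81; 18.3% of genes called). Without the same mouse Pvalb cells were lower than Vip cells by 2.36 on the log2 scale (adjusted p = 0.00019).

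Single cells showed what lay behind those means. Npy reached 10 CPM in 148 of 154 Lamp5 cells (96.1%, exact 95% binomial interval 91.7 to 98.6%), 191 of 214 Sst cells (89.3%, 84.3 to 93.1%), 282 of 575 Pvalb cells (49.04%, 44.9 to 53.2%), 26 of 50 Vip cells (52%, 37.4 to 66.3%) and 0 of 278 excitatory cells, which allows up to 1.32%. These intervals cover counting error only. The median Lamp5 cell had 23394 CPM and the highest 78146 CPM, and 143 of 154 were above 1000 CPM. The median Pvalb cell had 7.28 CPM, while 82 of 575 reached 1000 CPM. Of all Npy CPM summed over the 1483 cells, 64.7% was in Lamp5 cells, 15.9% in Sst cells, 4.76% in Pvalb cells and 2.43% in Vip cells. Of the 818 cells with Npy, Pvalb cells were the largest group, at 34.5%, and they were also the largest class, with 575 of the 1483 cells. Such shares depend on how many cells of each class were sorted.

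**Figure D2:**
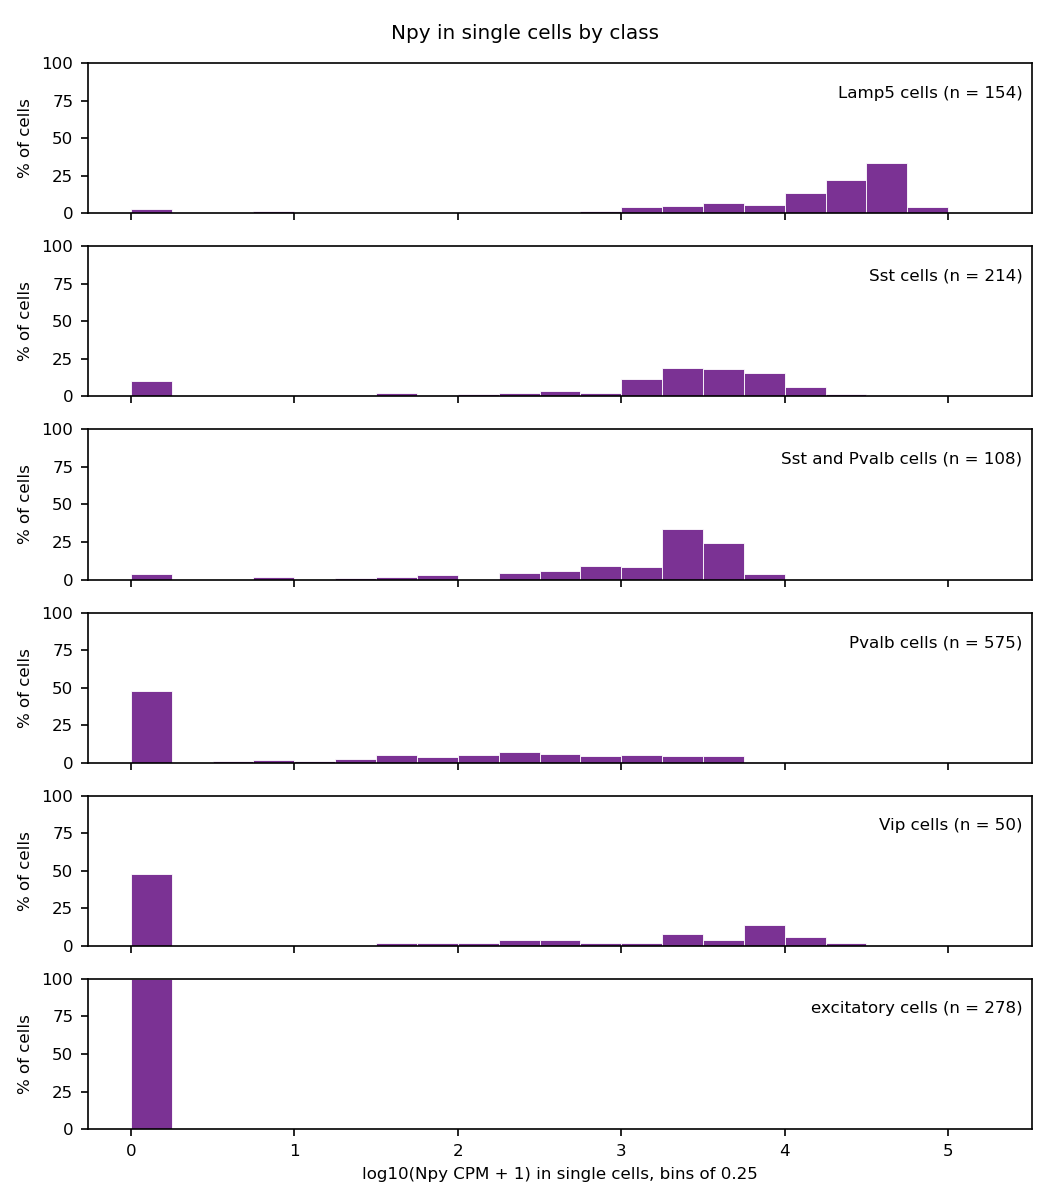
Distribution of Npy over single cells in 6 sets of cells, as percent of cells (y axis) in bins of log10(CPM + 1) (x axis). Lamp5, Sst and double-marker cells sit mostly above 1000 CPM, Pvalb and Vip cells fall into a set near 0 and a spread-out set above it, and excitatory cells are all in the lowest bins.

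Cells with both Sst and Pvalb at 100 CPM or more were kept out of the classes. In the 108 such cells Npy averaged 2291 CPM and reached 10 CPM in 94.4%. In the 12 mice with at least 5 of them and 5 Pvalb cells, Npy averaged 2310.4 ± 1099 CPM in the double-marker cells and 543 ± 232 CPM in the Pvalb cells (SD), and the double-marker cells were higher in 12 of 12 mice. Npy2r was at 10 CPM or more in 31 of the 108 cells (28.7%), and Npy1r in none of them.

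Genes were also ranked within a class by how closely their level followed Npy from cell to cell. Likeness was measured by the mean Spearman correlation within mice holding at least 10 cells of the class, among genes that reached 10 CPM in 25% or more of those cells. In Sst cells (9 mice) the 5 genes most like Npy were Vgf (rho 0.69), a dense-core vesicle peptide precursor, Scg2 (0.65), a granin of the same vesicles, Sst itself (0.63), Cort (0.60), which encodes the Sst-related peptide cortistatin, and Crhbp (0.59), a binding protein of corticotropin-releasing hormone. Other peptide genes did not rank with them, with a mean rho of -0.15 for Pdyn (positive in 3 of 9 mice), -0.05 for Crh (4 of 9 mice) and 0.09 for Tac1. In Lamp5 cells (6 mice) they were Tnnt1 (0.67), Rab3b (0.61), Stmn3 (0.59), Pebp1 (0.56) and Lsp1 (0.55). Ndnf and Reln, which mark Lamp5 cells of superficial layers, ran the other way, with mean rho of -0.43 and -0.35. In Pvalb cells (19 mice), a class added after values were seen, they were Cort (0.72), Moxd1 (0.70), Rab3b (0.67), Calb1 (0.67) and Crhbp (0.61). All 15 correlations were positive in every mouse with a value, and they are descriptions across cells that share libraries.

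Cort went with Npy in Sst, Pvalb and Lamp5 cells, in shares that pool cells over mice and were not tested. It was at 10 CPM or more in 154 of 191 Sst cells with Npy (80.6%) and in 3 of 23 without (13.04%). In Pvalb cells Cort was in 282 of 282 cells with Npy and in 212 of 293 without (72.4%), with mean levels of 516 CPM and 86.4 CPM. In Lamp5 cells it was in 131 of 148 cells with Npy and in 0 of 6 without, and 5 of those 6 were from eHGT_019h replicate 2. Shares were closer in Vip cells, with Cort in 12 of 26 cells with Npy (46.2%) and in 10 of 24 without (41.7%). Mean Cort levels in those Vip cells were 476 CPM and 96.4 CPM. Median reads per cell were 552668 and 561967 in Sst cells with and without Npy, and 607425 and 589154 in Pvalb cells.

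The 23 Sst cells without Npy came from 8 mice, 15 of them from the 3 eHGT_017h mice. These shares pool cells over mice and were not tested. Crh, corticotropin-releasing hormone, was in 27 of 191 Sst cells with Npy (14.1%) and in 11 of 23 without (47.8%), while its mean rho with Npy within mice was near 0, as given above. Cbln4, a synaptic organiser, was in 131 of 191 with Npy (68.6%) and in 2 of 23 without (8.70%), and Calb2, the calcium-binding protein calretinin, in 72 of 191 (37.7%) and in 0 of 23. Of other genes on the list, Pdyn was in 75.9% of Sst cells with Npy and 56.5% without, Hpse in 37.7% and 21.7%, Nos1 in 41.9% and 4.35%, and Etv1 in 39.8% and 13.04%. Chodl, the marker of the rare Sst cells that also make nitric oxide, was in 4 of 191 Sst cells with Npy and in 0 of 23 without. All of these genes were on the list of Sst subtype genes, and Cort was added after values were seen.

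**Figure D3:**
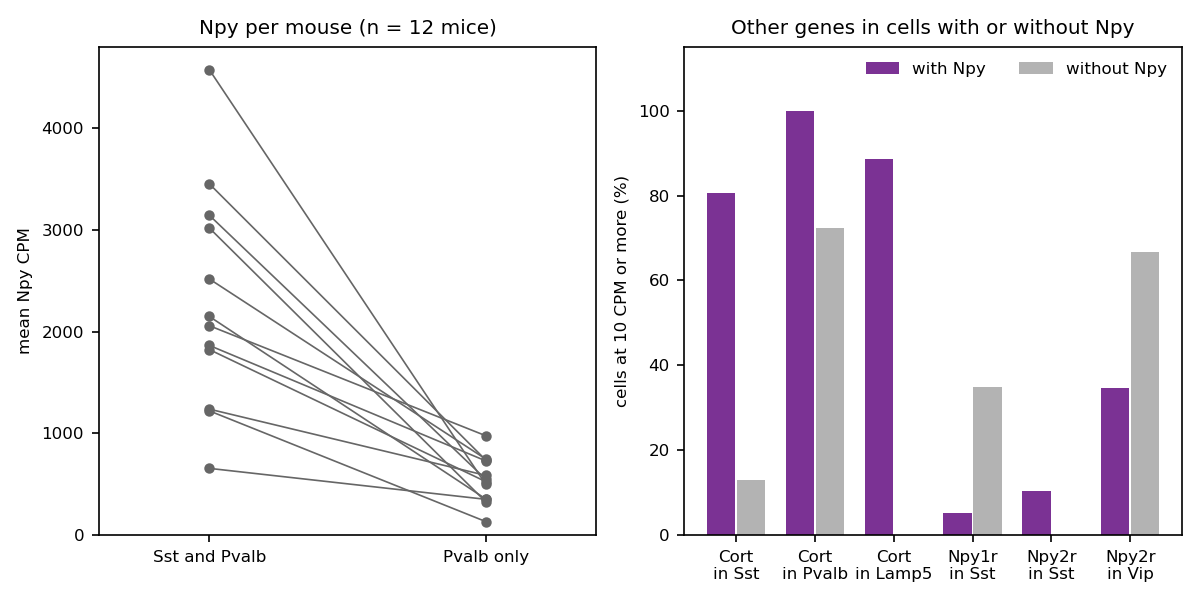
Left, mean Npy CPM in cells with both Sst and Pvalb and in Pvalb cells of the same mouse (lines join the 12 mice). Right, percent of cells at 10 CPM or more for Cort, Npy1r and Npy2r in cells with Npy (purple) and without Npy (grey) of the named class. The double-marker cells are higher in 12 of 12 mice, and Npy1r is in 5.24% of Sst cells with Npy against 34.8% of those without.

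Npy1r, the Y1 receptor gene, was highest in Vip cells, with excitatory cells next. It stood at 185, 232, 248 and 255 CPM in the 4 Vip mice, a mean of 230 ± 31.6 CPM (SD). Excitatory cells averaged 38.7 ± 15.1 CPM (n = 9), with 13.9, 38.3 and 61.5 CPM in the lowest, median and highest mouse. Lamp5 cells averaged 11.9 ± 4.5 CPM (n = 7, between 5.43 and 19.4 CPM), and Sst cells 3.92 ± 3.86 CPM (n = 12, between 0 and 12.05 CPM). In Pvalb cells 20 of 21 mice were at 0, and 1 of 575 cells had a value above 0, at 2.01 CPM. The Vip mice were all above the highest excitatory mouse, and every excitatory and Lamp5 mouse was above every Pvalb mouse.

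Npy1r was called higher in Vip cells by 5.13 ± 0.39 (SE, adjusted p = 3.9e-16) and in excitatory cells by 1.94 ± 0.29 (adjusted p = 8.5e-08). It was lower in Pvalb cells (-4.59 ± 0.22, adjusted p = 7.2e-26) and in Sst cells (-2.39 ± 0.25, adjusted p = 2.3e-11), and was not called in Lamp5 cells (-0.09, 95% interval -0.71 to 0.53). Vip cells exceeded excitatory cells by 2.55 ± 0.45 (adjusted p = 7.9e-06; 20.5% of genes called). Lamp5 cells were below excitatory cells (-1.62 ± 0.38, adjusted p = 0.00045; 17.3% of genes called) and above Sst cells (1.84 ± 0.36, adjusted p = 4e-05), and Sst cells were above Pvalb cells (1.76 ± 0.27, adjusted p = 3.3e-07). Each step of the order, Vip, excitatory, Lamp5, Sst and Pvalb, thus passed the test. With a pseudocount of 10 the Lamp5 to Sst and Sst to Pvalb steps were under the log2 difference of 1 (0.67 and 0.43), and with a pseudocount of 0.1 the step from Lamp5 to excitatory cells missed the adjusted p (0.058). No mouse held both a Vip and an excitatory unit, and with the mouse as a fixed term that step was 0.94 ± 0.79 (adjusted p = 0.49).

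Npy2r, the Y2 receptor gene, was high in Vip cells and sparse elsewhere. The 4 Vip mice had 56.6, 178, 259 and 264 CPM, a mean of 189 ± 97.0 CPM. Sst cells averaged 6.98 ± 8.61 CPM, with 8 of 12 mice above 0 and the highest at 24.4 CPM. Excitatory cells averaged 1.67 ± 2.14 CPM, with none of the 3 eHGT_023h mice above 0. In Lamp5 cells 5 of 7 mice were at 0, eHGT_019h replicate 3 had 1.09 CPM and eHGT_019h replicate 2 had 28.6 CPM. Pvalb cells averaged 0.038 ± 0.162 CPM, with 3 of 575 cells above 0. Vip mice were thus above all mice of the other classes.

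Npy2r was called higher in Vip cells by 6.35 ± 0.59 (adjusted p = 7.2e-13), and lower in Pvalb (-2.77 ± 0.33, adjusted p = 2.4e-10), Lamp5 (-1.73 ± 0.47, adjusted p = 0.0040) and excitatory cells (-1.60 ± 0.43, adjusted p = 0.0021). Below Vip, Sst cells exceeded Pvalb cells (2.02 ± 0.41, adjusted p = 7.1e-05). The other steps were not called after adjustment. Lamp5 minus Sst was -1.19 (95% interval -2.27 to -0.11, adjusted p = 0.10), Lamp5 minus excitatory was -0.11 (-1.25 to 1.04), Sst minus excitatory was 1.08 (0.08 to 2.09, adjusted p = 0.084; 16.7% of genes called) and Pvalb minus excitatory was -0.94 (-1.84 to -0.03, adjusted p = 0.088; 19.5% of genes called). Other class definitions gave calls: with a class marker threshold of 300 CPM, the highest marker giving the class or a transmitter threshold of 100 CPM, Sst minus excitatory was 1.75, 2.01 and 1.397 (adjusted p = 0.0033, 0.00048 and 0.014) and Lamp5 minus Sst was -1.82, -2.04 and -1.55 (adjusted p = 0.0080, 0.0018 and 0.018). Without eHGT_019h replicate 2, Lamp5 minus Sst was -1.84 and called (adjusted p = 0.0035), and Sst minus excitatory was called leaving out any of 7 mice (1.08 to 1.28).

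That Lamp5 mouse also had the lowest Npy of the class. Of the 6 Lamp5 cells without Npy, 5 were from eHGT_019h replicate 2 and 1 from an eHGT_140h mouse. The shares that follow pool cells over mice and were not tested, so the split by Npy is largely one between mice. Npy2r was in 4 of 148 Lamp5 cells with Npy (2.70%) and in 4 of these 6 (66.7%), where it averaged 2.98 CPM and 141 CPM. The eHGT_140h cell alone had 509 CPM, and the median of the 6 was 51.8 CPM. Ndnf was in 57 of 148 Lamp5 cells with Npy (38.5%) and in 6 of 6 without, and Reln was in 84 of 148 (56.8%) and in 6 of 6.

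Npy5r, the Y5 receptor gene, had the same order of class means as Npy1r. The 4 Vip mice had 13.6, 27.5, 90.7 and 126 CPM, a mean of 64.3 ± 52.9 CPM. Excitatory cells averaged 11.6 ± 8.15 CPM (n = 9, between 2.69 and 23.9 CPM), Lamp5 cells 5.92 ± 4.09 CPM (n = 7, up to 11.9 CPM), Sst cells 4.03 ± 4.48 CPM (n = 12, up to 15.7 CPM) and Pvalb cells 0.36 ± 0.67 CPM (n = 21, up to 2.16 CPM). Vip and excitatory mice overlapped in range, as did the excitatory, Lamp5 and Sst mice.

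Npy5r was called higher in Vip cells by 3.48 ± 0.50 (adjusted p = 2.1e-07) and lower in Pvalb cells (-2.96 ± 0.28, adjusted p = 1.4e-13) and in Sst cells (-1.10 ± 0.33, adjusted p = 0.0086). In excitatory cells the difference was 0.87 ± 0.37 and was not called (adjusted p = 0.054). Vip cells were above excitatory cells (2.08 ± 0.58, adjusted p = 0.0040) and Sst cells above Pvalb cells (1.49 ± 0.35, adjusted p = 0.00053). Lamp5 minus excitatory (-0.93, 95% interval -1.91 to 0.04) and Lamp5 minus Sst (0.65, -0.27 to 1.56) were not called. With the mean of log2 values over cells Lamp5 minus excitatory was called (-1.06, adjusted p = 0.010). The Sst call was lost without eHGT_017h replicate 1, eHGT_023h replicate 3 or eHGT_079h replicate 2 (-0.90, -0.87 and -0.94), and the step between Vip and excitatory cells was lost without eHGT_017h replicate 1 (1.57, adjusted p = 0.053) and with the mouse as a fixed term (0.60, adjusted p = 0.79).

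Counted by class, 3 of the 4 genes were higher and 0 were lower in Vip cells, where 5.63% and 7.78% of all genes were called in those directions. In Pvalb cells 3 of 4 were lower, against 6.02% of all genes, and 0 were higher. In Sst cells 1 was higher and 2 lower (3.39% and 4.12% of all genes), in Lamp5 cells 1 and 1 (5.55% and 4.68%), and in excitatory cells 1 and 2 (10.7% and 4.66%). The 4 genes were chosen as a family and with earlier results of these cells known, so these counts describe them only.

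**Figure D4:**
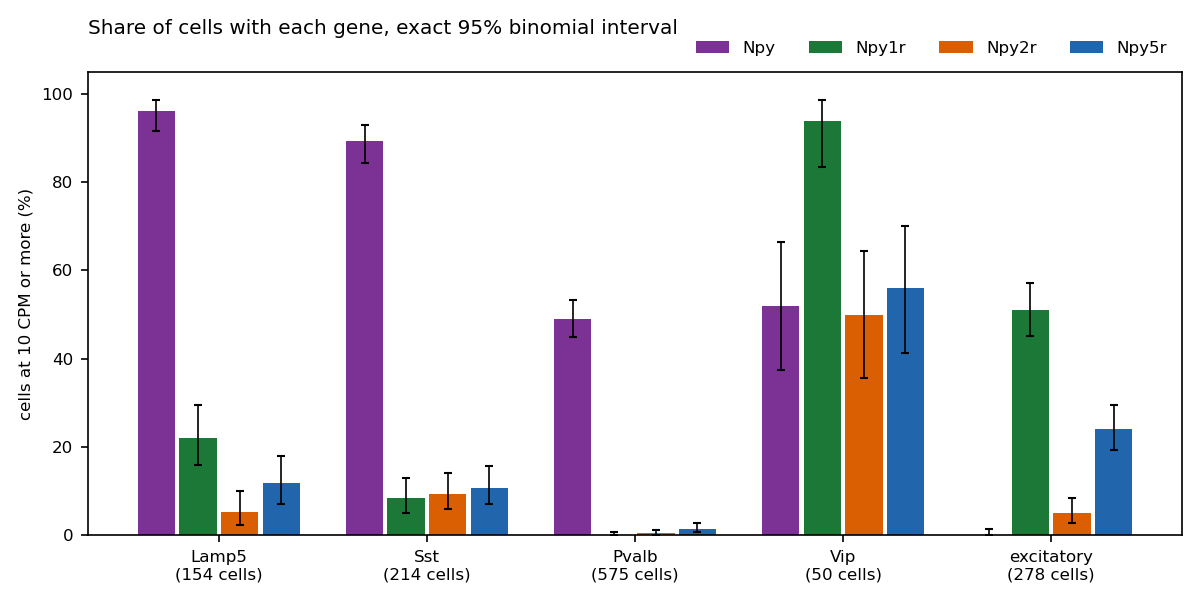
Percent of cells with each gene at 10 CPM or more (bars) by class, with exact 95% binomial intervals over cells. Npy1r is in 94.0% of Vip and 51.1% of excitatory cells and in 0% of Pvalb cells, while Npy is in 0% of excitatory cells.

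Nearly all Vip cells had at least 1 receptor. Npy1r was at 10 CPM or more in 47 of 50 Vip cells, Npy5r in 28 and Npy2r in 25. All 25 cells with Npy2r also had Npy1r, as did 27 of the 28 with Npy5r, and with Npy1r in 94.0% of the class such overlap is near what that share alone gives. Npy5r was in 16 of the 25 Vip cells with Npy2r (64%) and in 48.0% of those without, a difference that was not tested. Only 2 of 50 Vip cells had no receptor at this threshold. At least 1 receptor was in 96.0% of Vip cells, 60.8% of excitatory cells, 30.5% of Lamp5 cells, 24.8% of Sst cells and 1.74% of Pvalb cells. Npy1r was in 0 of 575 Pvalb cells at a median of 597741 reads per cell, which allows up to 0.639%, while Vip cells had a median of 579100 reads. With cells thinned to 100000 reads the mean share over mice of Vip cells with Npy1r was 91.3%, against 92.7% without thinning, and the shares of excitatory cells were 59.8% and 56.6%. The threshold mattered more: at 30 CPM the mean share with Npy1r was 81.25% in Vip cells and 34.9% in excitatory cells.

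Ligand and receptor overlapped in some cells. Among Sst cells, 44 of 214 had Npy with at least 1 of the receptors. The shares that follow pool cells over mice and were not tested, and 15 of the 23 Sst cells without Npy came from eHGT_017h. Npy2r was in 20 of 191 Sst cells with Npy (10.5%) and in 0 of 23 without, and Npy1r was in 10 of 191 (5.24%) and in 8 of 23 (34.8%). No Sst cell had both Npy1r and Npy2r, but only 18 and 20 of 214 had each, and such shares alone give few cells with both. In Vip cells Npy2r was in 9 of 26 cells with Npy (34.6%) and in 16 of 24 without (66.7%), and Npy1r was in 24 of 26 and in 23 of 24. Cck was in 18 of 26 Vip cells with Npy (69.2%) and in 7 of 24 without (29.2%), and Sncg in 8 of 26 and in 1 of 24. Calb2 went the other way, in 10 of 26 and in 15 of 24, and Crh was in 23 of 26 and in 20 of 24. Cck, Sncg, Calb2 and Crh were added here after values were seen. Of these Vip cells, 9 of the 26 and 17 of the 24 came from eHGT_017h mice. In excitatory cells Npy5r was in 47 of 142 cells with Npy1r (33.1%) and in 20 of 136 without (14.7%).

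Across the 53 units of class and mouse, Npy5r was most like Npy1r among 8291 ranked genes (Pearson r 0.88 on the log2 scale). Npy2r had r of 0.61 with Npy1r and 0.59 with Npy5r, and Npy had r of -0.33, 0.02 and -0.26 with Npy1r, Npy2r and Npy5r. The genes most like Npy were Gad2 (0.89), which the class rule used, Dlx1as (0.88), Snx8 (0.88), Sox2ot (0.88) and Klhl13 (0.86). For Npy1r they were Sorcs3 (0.93), Cpne7 (0.90), Gpd1 (0.90), Igfbp5 (0.89) and Gnai1 (0.89), and for Npy2r Wnt7a (0.80), Vip (0.78), which the rule also used, Grpr (0.76), Tac2 (0.76) and Sall1 (0.76). After Npy1r, those most like Npy5r were Scn3a (0.81), Serpine2 (0.80), Sorcs3 (0.79) and Sorcs2 (0.79). Dlx1as and Sox2ot overlap other genes, and whether reads were counted by strand is not given in the sources used here. These correlations are descriptions over units that share mice and were sequenced together.

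The other ligands and receptors of the family were at or near 0. Pyy, the gut peptide YY, Ppy, pancreatic polypeptide, and the receptor gene Npy6r had 0 reads in 1483 cells, and Npy4r had 1 read in 1 cell. None of the 4 passed the filter on low values. The genes that process and store neuropeptides, 12 in all and all tested, were counted by class. Of all genes tested, 5.55% were called higher and 4.68% lower in Lamp5 cells, 3.39% and 4.12% in Sst cells, 4.53% and 6.02% in Pvalb cells, 5.63% and 7.78% in Vip cells, and 10.7% and 4.66% in excitatory cells, so that 0 of 12 called higher is near the share of all genes. In Lamp5 cells, where Npy was highest, 0 were higher and 3 lower, with a median log2 difference of -0.19 against 0.02 over all genes: the prohormone convertase Pcsk1 (-2.69 ± 0.43), the vesicle-release factor Cadps2 (-2.58 ± 0.42) and the granin Chga (-1.58 ± 0.10, adjusted p = 4.1e-20). Pcsk1n in Lamp5 cells (0.66, adjusted p = 7.7e-07) and Chga in Sst cells (0.90, adjusted p = 7.3e-14) had positive differences under the log2 limit of 1. In Pvalb cells 0 were higher and 3 lower, Pcsk1 (-2.96), Pcsk2 (-2.96) and Cadps2 (-3.03), with medians of 0.01 and -0.04. Vip cells had 3 higher, Pcsk1 (2.63), the amidating enzyme Pam (1.33) and Cadps2 (3.30), and 0 lower, with medians of 0.10 and -0.16. Sst cells had 0 higher and 1 lower, Cadps2 (-2.10). Excitatory cells, with no Npy, had 3 higher, among them Pcsk2 (2.92 ± 0.21), and 2 lower, Pam (-1.38) and Pcsk1n (-1.02).

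Cpe, the carboxypeptidase that trims the cut peptide, was in 100% of cells of each class, with means between 1245 CPM in Lamp5 and 1761 CPM in excitatory cells, and was not called in any. Of the 2 enzymes that cut Npy outside the cell, Mme, neprilysin, was higher in Pvalb (3.43 ± 0.31, adjusted p = 3.8e-14) and Sst cells (1.14 ± 0.37) and lower in Lamp5 (-1.28), Vip (-1.85) and excitatory cells (-1.44). It averaged 39.4 ± 9.03 CPM in Pvalb cells, where the receptors were near 0. Dpp4 was higher in excitatory cells (1.21 ± 0.30) at 3.80 ± 4.76 CPM.

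Of the 10 genes of Gi/o signalling, which carries the receptors' effect, 1 was higher in Vip cells (Gnai1, a Gi alpha subunit, 1.07 ± 0.15, adjusted p = 1.3e-07) and 2 in excitatory cells, Gnaz (1.25) and the potassium channel subunit Kcnj6 (1.47). Of all genes, 5.63% were called higher in Vip and 10.7% in excitatory cells, so these counts are near that background. In Pvalb cells 3 were lower, Gnai1 (-1.08), Gnai2 (-1.03) and the N-type calcium channel gene Cacna1b (-1.29). In Sst cells Kcnj3 (-1.08) and Kcnj6 (-1.30) were lower and in Lamp5 cells Gnaz (-1.82), where 6.02%, 4.12% and 4.68% of all genes were called lower in Pvalb, Sst and Lamp5 cells. Median log2 differences of the list were 0.22 in Vip, 0.50 in excitatory, -0.41 in Pvalb, -0.32 in Sst and 0.10 in Lamp5 cells, and between -0.16 and 0.07 over all genes.

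By enhancer, with all sorted cells of a mouse averaged, levels were compared between the 11 sorts, which also differed in the classes they held. The 11 enhancers differed in Npy (limma F test, adjusted p = 3.4e-07), Npy1r (adjusted p = 3.7e-08) and Npy5r (adjusted p = 3.3e-06), and did not pass for Npy2r (adjusted p = 0.077), where 53.4% of the 18932 genes tested did. Fewer cells of a class and less RNA per cell cannot be told apart in these averages, nor can the enhancer and its mix of classes.

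**Figure D5:**
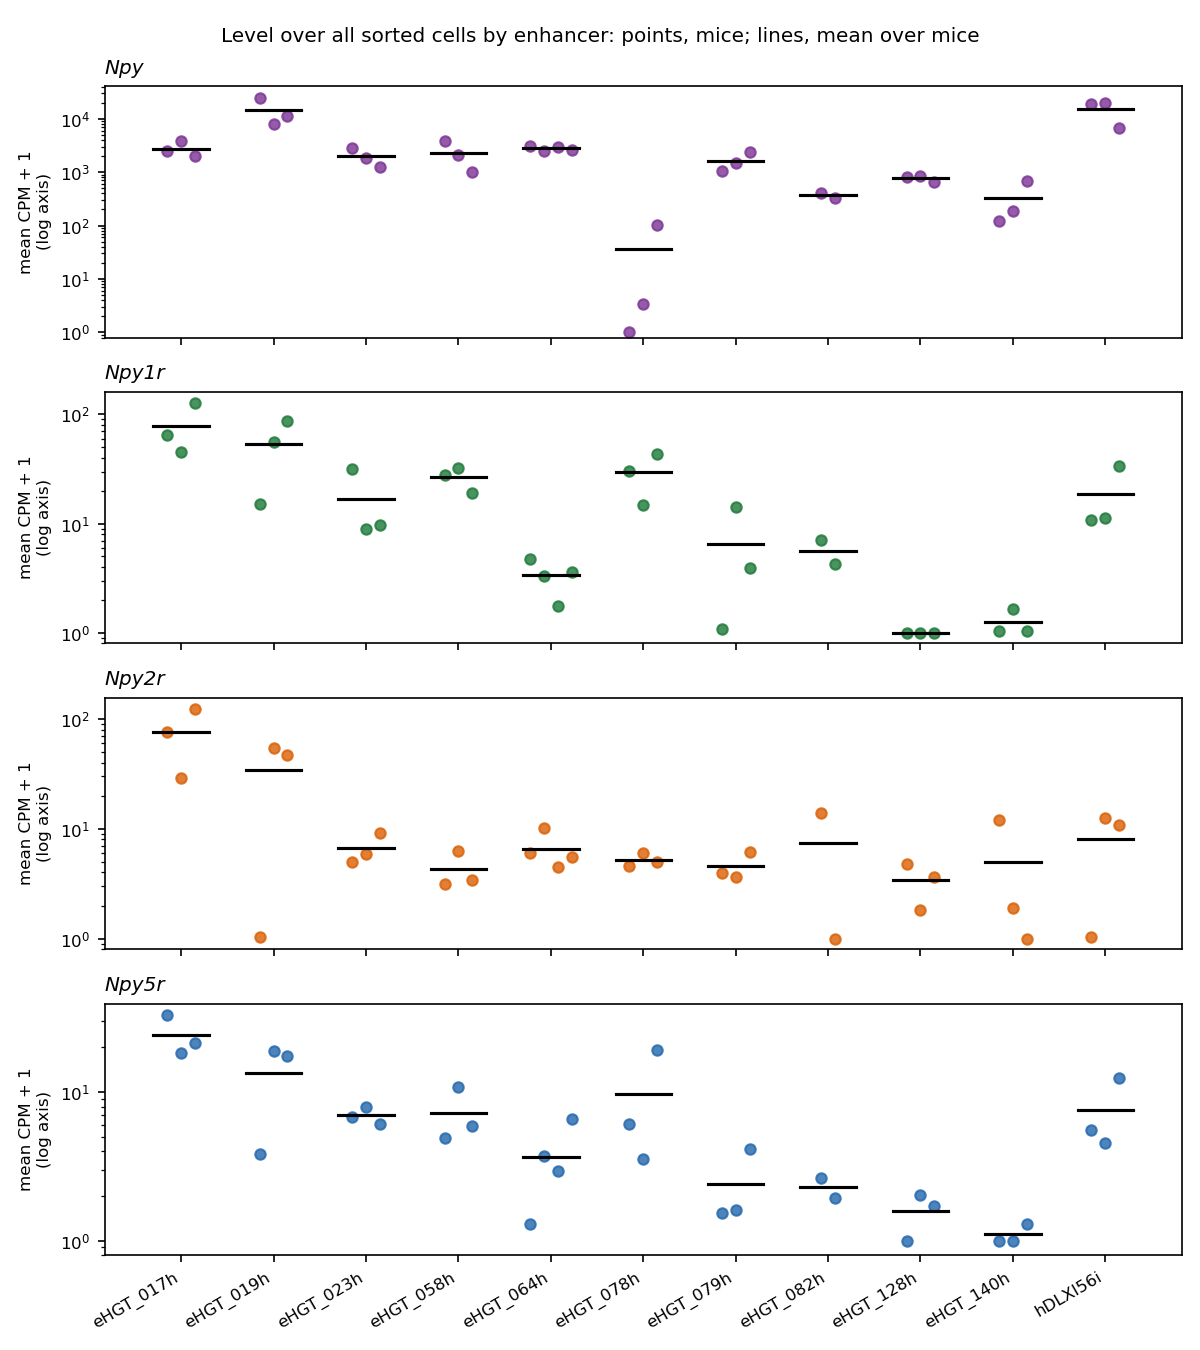
Mean level over all sorted cells of each mouse (points) by enhancer, as CPM + 1 on a log axis, with the mean over mice as a line. Npy is highest for eHGT_019h and hDLXI56i and lowest for eHGT_078h, and Npy1r is at 0 in all 3 eHGT_128h mice.

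For Npy, eHGT_019h mice had 7985, 11364 and 24702 CPM and hDLXI56i mice 6572, 18860.3 and 19374 CPM, higher than the mean of the other 10 enhancers by 3.89 ± 0.76 (adjusted p = 0.00048) and 3.93 ± 0.76 (adjusted p = 0.0017). Of their Npy CPM, 81.5% and 88.4% was in Lamp5 cells. The eHGT_078h mice had 0, 2.36 and 103 CPM, and 136 of their cells were excitatory. They were lower than the others (-8.05 ± 0.76, adjusted p = 1.6e-08), and 1 Sst cell held 82.2% of their Npy. The eHGT_140h mice, with 119, 184 and 692 CPM, were lower too (-2.40 ± 0.76, adjusted p = 0.039). That call was lost without eHGT_082h replicate 1 (-2.38), eHGT_140h replicate 1 (-1.87) or eHGT_140h replicate 2 (-2.18). For hDLXI56i, 2.34% of genes were called higher, for eHGT_019h 5.78%, for eHGT_078h 5.36% lower and for eHGT_140h 3.97% lower.

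For the receptors, eHGT_017h was called higher for all 3. Its mice had 44.1, 63.1 and 125 CPM of Npy1r (3.26 ± 0.51, adjusted p = 8.8e-05), 28.1, 74.6 and 122 CPM of Npy2r (3.70 ± 0.87, adjusted p = 0.0057) and 17.4, 20.5 and 32.1 CPM of Npy5r (2.63 ± 0.44, adjusted p = 0.00013), where 3.78% of genes were called higher. Its 26 Vip cells held 65.5% of its Npy1r, 65.3% of its Npy2r and 57.1% of its Npy5r. Without eHGT_017h replicate 3 the Npy2r call was lost (3.24, adjusted p = 0.067). In eHGT_019h, Npy1r (2.42 ± 0.51) and Npy5r (1.39 ± 0.44) were higher, and the Npy5r difference was not called without replicate 2 or 3 (0.98 and 1.05) and was 2.14 without replicate 1.

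Sorts of eHGT_058h and eHGT_078h, with 92 and 136 excitatory cells, were higher in Npy1r (1.65 and 1.71, adjusted p = 0.014 and 0.011), with 18.2, 27.1 and 31.6 CPM and 13.8, 29.04 and 42.7 CPM, and excitatory cells held 97.6% and 99.3% of it. In these sorts 9.36% and 8.99% of genes were called higher. The calls were lost without eHGT_058h replicate 1 or 2 (1.60 and 1.49) and without eHGT_078h replicate 1 or 3 (1.63 and 1.36). Among Pvalb-rich sorts, Npy1r was listed at 0 in all 3 eHGT_128h mice (adjusted p = 4.4e-05) and stood at 0.041, 0.042 and 0.66 CPM in eHGT_140h mice (-3.21 ± 0.51, adjusted p = 0.00012). Npy5r was lower in both (-1.73 ± 0.44 and -2.25 ± 0.44), and the eHGT_128h call was lost without its replicate 1 (-1.43). Of all genes, 3.78% were called lower in eHGT_128h and 1.84% in eHGT_064h. In eHGT_064h mice Npy1r was between 0.75 and 3.75 CPM (-1.69 ± 0.45, adjusted p = 0.019), not called without replicate 3 or 4 (-1.41 and -1.76), with no filter on low values (adjusted p = 0.051), with voom (adjusted p = 0.61) or with library letter G only (adjusted p = 0.47).

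Inside Sst, Pvalb and excitatory cells, none of the 4 genes passed the test between enhancers where it was tested. Lamp5 and Vip cells had fewer than 3 enhancers with at least 2 mice and were not tested. Among Sst units (11, from 4 enhancers) the adjusted p of the F test was 0.38 for Npy, 0.41 for Npy1r, 0.48 for Npy2r and 0.79 for Npy5r, where 26 of 16221 genes (0.16%) were called. Unadjusted p was 0.031 for Npy and 0.042 for Npy1r. Among Pvalb units (20, from 7 enhancers) it was 0.87 for Npy and 0.85 for Npy5r, with 1.28% of genes called, and Npy1r and Npy2r did not pass the filter on low values. Among excitatory units (9, from 3 enhancers) it was 0.30 for Npy1r, 0.26 for Npy2r and 0.46 for Npy5r, with 0.983% of genes called. Within Pvalb cells Npy was between 124 and 976 CPM over the 21 mice, and the 3 eHGT_140h mice, at 124, 145 and 723 CPM, covered most of that range. Their shares of Pvalb cells with Npy at 10 CPM or more lay closer together, at 29.3, 33.3 and 32.6%. Over the 21 mice that share averaged 52.7 ± 17.4% (SD), from 23.8 to 100%, and it was not tested between enhancers.

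The first letter of the library prefix, G for 24 mice and J for 9, was the only part of that prefix compared. The 32 full prefixes were not compared. Mice with J minus mice with G, with enhancer in the fit, differed by 1.35 ± 0.60 in Npy (adjusted p = 0.41) and by 0.92 ± 0.35 in Npy5r (adjusted p = 0.29), and by -0.17 and -0.54 in Npy1r and Npy2r. All 3 eHGT_023h mice were J, so the letter and that enhancer cannot be told apart. The same holds for eHGT_017h, eHGT_019h, eHGT_082h, eHGT_128h and hDLXI56i, whose mice were all G. The Lamp5 and Vip units also came from G mice only.

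Other cells held Npy too. The 79 cells with both Slc17a7 and a Gad gene at 10 CPM had Npy in 68.4% and Npy1r in 24.1%, and 27 of them were eHGT_019h cells that held 15.3% of that enhancer's Npy and 44.9% of its Npy1r. Their part in the enhancer levels was not tested. Among the 21 GABAergic cells with none of the 4 class markers, Npy1r was in 14 (66.7%), Npy2r in 6 and Npy5r in 8, and Npy in 12. Markers of astrocytes, microglia and endothelial cells had a median of 0 in each class and summed to at most 78.4 CPM in a unit, and those of oligodendrocyte precursors to at most 138 CPM. Oligodendrocyte markers summed to 2957 CPM in the Sst unit of eHGT_023h replicate 1 and to 984 CPM in that of eHGT_064h replicate 1, where 1 cell held most of it (37963 and 20133 CPM), and their part in the Sst values was not tested.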

How the data were processed

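Single SYFP2-sorted cells of primary visual cortex were sequenced with SMARTerv4, per the labels' protocols, and STAR and mm10 are named in the submitters' processing notes with no version given. The authors deposited 1 table of CPM per cell, in which every cell sums to 1000000, and the deposited values of the most abundant genes, Npy among them, were handled as signal, a label for the same CPM scale. Reads per cell came from the smallest step in each cell, and 100% of values above 0 lay within 0.01 of a whole number of reads.

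Mice are the replicates, numbered within an enhancer in accession order. Nothing was removed for depth, and 16 cells had under 100000 reads. No doublet caller was run, and cells with both transmitter types (79), several class markers (111), none (21) or neither transmitter type (1) stayed outside the classes.

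CPM was averaged per mouse, or per mouse and class with at least 5 cells, and log2(mean CPM + 1) was fitted in limma 3.58.1 (trend and robust) in R 4.3.3, with genes at 1 CPM or more in at least 2 units. The class fit took the mouse as a random block (correlation 0.081). Within-class tests between enhancers used enhancers with at least 2 mice. Benjamini-Hochberg adjustment ran over all genes tested. Shares, intervals and correlations used Python 3.11.15 with numpy 2.4.6, pandas 2.3.3 and scipy 1.17.1. Genes alike across units were ranked among those averaging 20 CPM or more in a class, and the 5 most alike are named. Promoters and gene positions are from RefSeq (GRCm38.p6), and all 4 genes matched by symbol.

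The members and all gene lists were chosen with earlier results of these data known. The planned count-model alternative was not run, and limma voom on the recovered reads was used in its place, a choice made after seeing the data. Where nothing says that mice of an enhancer were handled separately, p-values measure only the spread between these samples.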

Additional observations from a re-analysis of the deposited data

Results flagged for a closer look

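Of the 15 groups of 4 to 10 mice in which a single far value was looked for, 1 had one, and chance gives about 1 in 20. It was Npy2r in Lamp5 cells, where eHGT_019h replicate 2 had 28.6 CPM and the other 6 mice between 0 and 1.09 CPM. The gap to the next mouse was 0.962 of the whole range of the 7 mice. In that mouse 5 of 17 Lamp5 cells had Npy2r at 10 CPM or more, and 12 of the 17 had Npy, against all of the Lamp5 cells in the 6 others. No cause was tested.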

How the results depend on the processing

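By replicate number, no paired analysis was possible because the numbers are accession order only and tie no mice together across enhancers. Classes of the same mouse were paired through the mouse as a random or fixed term. The planned count-model alternative was not run. Among the class differences, Npy5r in Sst cells depended most on the processing. It was no longer called with a pseudocount of 10 (-0.63) or 0.1 (-1.18), the mean of log2 values over cells (-0.85), voom (-0.67), library letter G only (-0.84), the mouse as a fixed term (-1.29), a transmitter threshold of 100 CPM (-0.99) or at least 10 cells per unit (-0.42), and lay between -1.41 and -0.87 leaving out single mice. Npy2r in Lamp5 cells was not called with a pseudocount of 10 (-0.92), the mean of log2 values (-0.88) or the mouse as a fixed term (-1.71, adjusted p = 0.062). Npy2r in excitatory cells was not called with a pseudocount of 0.1 (-1.50), voom (-0.87) or letter G only (-0.56), and Npy1r in excitatory cells not with a pseudocount of 10 (0.70). The Npy2r test over enhancers passed with a pseudocount of 10 (adjusted p = 0.0016) and with the mean of log2 values (8.05e-07), and ranged from 0.0013 to 0.29 leaving out single mice. The other 10 called class differences kept their call and direction under all alternatives run.

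Of the 16 pair differences recomputed, none of the called ones changed direction. The call for Npy, Sst minus Vip, was also lost with voom (3.92), the mouse as a fixed term (3.56), a transmitter threshold of 100 CPM (1.19) and at least 10 cells (1.06). With the mean of log2 values the Npy1r steps from Lamp5 to Sst (0.75) and Sst to Pvalb cells (0.46) fell under 1. Npy5r, Sst minus Pvalb, was lost with a pseudocount of 10 (0.38), the mean of log2 values (0.50) and the mouse as a fixed term (1.31), and Npy5r, Vip minus excitatory, with a pseudocount of 0.1 (2.14) and at least 10 cells (1.72). Npy, Pvalb minus Vip, uncalled, changed sign with a pseudocount of 10 (-0.43), the mean of log2 values (-0.89), the mouse as a fixed term (-0.61), a transmitter threshold of 100 CPM (-2.18) and at least 10 cells (-2.12), and ranged from -2.36 to 1.90 leaving out single mice. Npy2r, Lamp5 minus excitatory, uncalled, changed sign with a pseudocount of 10 (0.12), the mean of log2 values (0.14) and the mouse as a fixed term (0.64), and ranged from -0.76 to 0.096. Npy2r, Pvalb minus excitatory, also uncalled, changed sign with the mouse as a fixed term (0.24). It was called with a pseudocount of 0.1 (-2.47), voom (-3.87), letter G only (-1.91) and at least 10 cells per unit (-1.25). Npy1r in Lamp5 cells was called lower with the mean of log2 values (-1.47) and higher with voom (1.35). Npy5r in excitatory cells was called higher with voom (1.62) and with a pseudocount of 0.1 (1.78). Among single enhancers, a pseudocount of 10 ended the calls for Npy5r in eHGT_019h (0.55), eHGT_128h (-0.55) and eHGT_140h (-0.63) and for Npy1r in eHGT_058h (0.68), eHGT_064h (-0.99) and eHGT_078h (0.74), and the mean of log2 values ended the same 3 of Npy5r (0.46, -0.66 and -0.74). Voom ended those for Npy1r in eHGT_064h (-1.24), eHGT_128h (-8.85) and eHGT_140h (-5.60) and for Npy5r in eHGT_128h (-3.34). A pseudocount of 0.1 ended those for Npy in eHGT_140h (-2.28) and Npy1r in eHGT_064h (-1.52), no filter that for Npy in eHGT_140h (adjusted p = 0.056), and letter G only that for Npy1r in eHGT_078h (1.37). Calls were also gained. Npy in eHGT_058h was lower with the mean of log2 values (-3.59) and higher with letter G only (1.84). Npy was higher in eHGT_017h with voom (1.60), letter G only (1.72) or without eHGT_078h replicate 3 (1.55). In eHGT_064h it was higher with the mean of log2 values (2.52), voom (1.66) or without that mouse (1.62). Voom called Npy5r in eHGT_078h (1.52), and leaving out 1 mouse called Npy2r in eHGT_019h (3.13) and Npy1r in eHGT_079h (-2.27). The cause of these changes was not tested. Where few cells hold a gene, as with Npy2r in 8 of 154 Lamp5 and 20 of 214 Sst cells, few cells set the mean of a mouse.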
